A study of Mus musculus with 22 samples.

Results

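The comparison asks which transcripts of thymic medullary epithelial cells (MECs) differ when a type II topoisomerase inhibitor is added to a topoisomerase I inhibitor. It sets the 3 arrays titled as wild type (WT) with Etopo and Topo together, here WT EtopoTopo, against the 3 arrays titled as WT with Topo alone, here WT Topo. These 6 arrays were chosen by title, out of 22 arrays in the series. Both groups carry the Aire+/+ genotype on a C57Bl/6 background. By label, the mice were 4 weeks old for WT EtopoTopo and 6 weeks old for WT Topo, so the added drug and the age of the mice cannot be told apart within the 6 arrays. The abbreviations are commonly used for etoposide and topotecan, but they are not written out in the labels, and no dose or duration of treatment was used here. The titles of WT EtopoTopo 1 and 2 name both drugs while their treatment label names Etopo alone, and only WT EtopoTopo 3 carries both drugs in title and label.

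The cells were live, lacked CD45, had little Ly51 and carried much MHC class II. This gate selects for mature MECs and against thymocytes and other leukocytes. RNA was amplified and hybridised to Affymetrix whole-transcript arrays. The other arrays used here were WT DMSO, WT Etopo, Aire knockout (KO) EtopoTopo, KO Topo and KO DMSO. WT DMSO and WT Etopo each held 1 array of 4-week and 2 of 6-week mice, the 2 KO EtopoTopo arrays were of 4-week mice, and the 3 KO Topo and 3 KO DMSO arrays were of 6-week mice. DMSO is the vehicle. It is not stated whether each array represents 1 mouse or several pooled, and the spread behind every p-value is therefore that between arrays, some of which may be technical.

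MECs express genes of many peripheral tissues at low levels, and developing T cells that react strongly to the encoded proteins are deleted or diverted. Aire, a nuclear protein restricted largely to mature MECs, raises transcription of many of these tissue antigens, partly by releasing paused RNA polymerase. Topoisomerase I relieves the supercoils that a moving polymerase leaves behind by cutting a single DNA strand, and topotecan traps the enzyme on the cut. Topoisomerases IIα and IIβ cut both strands to pass one duplex through another, and etoposide traps them in the same way. Type II topoisomerases have been described among the proteins that associate with Aire.

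The 14 markers of thymic epithelium and MECs averaged 11.69 to 12.07 log2 units on WT EtopoTopo arrays and 12.04 to 12.10 on WT Topo arrays. The 20 thymocyte markers averaged 7.04 to 7.25 on WT EtopoTopo and 7.24 to 7.32 on WT Topo arrays. Outside the comparison they averaged 8.31 on WT DMSO 1 and 8.77 on KO DMSO 1, against 7.35 to 7.55 on the other DMSO arrays. Levels of different array probes cannot be set against each other, so these means do not measure the purity of the sort. The Aire probe was higher in KO DMSO (12.88 to 12.96) than in WT DMSO (12.24 to 12.44) and so does not mark the KO arrays, and whether it lies outside the deleted part of the gene was not tested. A list of known Aire-dependent antigens averaged 7.58 to 7.71 in KO DMSO, against 9.78 to 9.91 in WT DMSO. WT Topo 2 is labelled male, but Xist was high on it (12.10) and the Y-linked Uty was low (4.70), as on both other WT Topo arrays. Median intensity was 236 to 264 over the 22 arrays, and replicate arrays of these 2 groups correlated at 0.987 to 0.995 across genes. The span between percentiles 10 and 90 of the log2 values was 4.41, 4.07 and 4.07 in WT EtopoTopo 1 to 3, against 4.28, 4.44 and 4.47 in WT Topo 1 to 3. No read depth applies to array signal, and precision is limited by having 3 arrays per group.

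Adding Etopo to Topo was accompanied by 27 genes called higher and 48 called lower among 19752 tested, where called means a Benjamini-Hochberg adjusted p under 0.05 in limma. That is 0.38% of all genes, 0.137% higher and 0.243% lower, and 20 of the 75 differed by at least 2-fold. After quantile normalization 157 genes were called higher and 107 lower, with 70 of the 75 still among them. The lower genes included transcripts of liver, stomach, bladder and endocrine glands that Aire induces in MECs. The higher genes included a protease inhibitor, an adaptor of tuft cells and several small noncoding RNAs. At an unadjusted p under 0.05 there were 2972 genes, where 988 would be the number under uniform p-values, and the median difference of all genes was -0.02 log2 units. The arrays of the 2 groups did not overlap for all 75 called genes, as for 5501 genes (27.9%) of the whole table.

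The called set was sensitive to single arrays. Of the 75 genes, 38 remained called without WT EtopoTopo 1, but between 2 and 7 remained without any other single array of the 6. Csta2 and Mir680-1 were the 2 genes that remained called without each of the 6 arrays in turn.

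The gene with the lowest p-value was Csta2, a member of the stefin A family, which inhibits cysteine proteases of the cathepsin type. Its log2 intensity was 5.56, 6.05 and 6.04 in WT EtopoTopo 1 to 3, against 4.58, 4.67 and 4.60 in WT Topo 1 to 3. Every array with both drugs was higher, by a difference of 1.27 ± 0.16 (SE, adjusted p = 0.00157), or 2.41-fold higher. In the groups without Topo, Csta2 was 4.60, 4.88 and 5.16 in WT Etopo and 5.12, 5.09 and 5.61 in WT DMSO, with the 4-week array highest in each. The stefin A genes form a cluster of closely similar copies, so hybridisation of related transcripts to this probe was not tested.

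Sh2d6, an SH2 domain protein expressed in tuft cells, was the only called member of the tuft cell list. It stood at 11.31, 11.29 and 11.07 in WT EtopoTopo, against 10.45, 10.03 and 10.10 in WT Topo. The difference was 1.03 ± 0.21 (adjusted p = 0.0448), and the 2 groups did not overlap. Sh2d6 was lower in both groups without Topo, where it reached 10.42 in the 4-week WT Etopo array and 9.89 in the 4-week WT DMSO array.

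Other genes called higher came from unrelated families. Nlrp9b, a NOD-like receptor of intestinal epithelium, was 6.69, 6.72 and 6.90 in WT EtopoTopo and 5.73, 5.98 and 5.79 in WT Topo (difference 0.94 ± 0.17, adjusted p = 0.0278). Airn, the long noncoding RNA that silences Igf2r on the paternal chromosome, was 9.56, 9.54 and 9.40 against 8.56, 8.79 and 8.49 in WT Topo (0.89 ± 0.20). Both genes had separate groups with narrow spread. Atat1, which acetylates α-tubulin, rose by 0.88 ± 0.18, Rgs22, a regulator of G protein signalling, by 0.86 ± 0.19 and the centrosomal gene Cep85 by 0.85 ± 0.18. The zinc finger gene Zfp579 rose by 0.88 ± 0.17, the glutamate receptor gene Grid1 by 0.79 ± 0.17 and the SSX family member Ssxb3 by 0.85 ± 0.18. Pisd-ps2 rose by 1.19 ± 0.21, but it is a pseudogene of the phosphatidylserine decarboxylase gene Pisd, and signal from the parent gene cannot be told apart from its own. Naaladl2 was the only called gene with several probes. Its called probe differed by 0.76 ± 0.17 and its second probe by 0.35 ± 0.19 in the same direction.

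Mir680-1 and Mir680-2, loci of a microRNA precursor, were called as well and are named because they had 2 of the 3 largest differences among the higher genes, a choice made after their values were seen. Mir680-1 was 8.92, 8.93 and 9.27 in WT EtopoTopo, against 7.16, 7.62 and 7.51 in WT Topo (difference 1.61 ± 0.22, adjusted p = 0.00378). Mir680-2 was 9.26, 9.44 and 9.86, against 7.93, 8.36 and 8.33 in WT Topo (1.31 ± 0.25, adjusted p = 0.0416). All arrays with both drugs were higher at both loci. The 2 sequences are shown because they bear on whether the 2 signals are independent. RefSeq (GRCm38.p6) places the hairpins on the plus strand at chr6:129691535-129691643 and chrX:144297790-144297899. Capitals mark the mature miR-680 arm.
Mir680-1 hairpin: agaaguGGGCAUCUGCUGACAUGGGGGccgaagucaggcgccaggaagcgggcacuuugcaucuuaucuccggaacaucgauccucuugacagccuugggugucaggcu
Mir680-2 hairpin: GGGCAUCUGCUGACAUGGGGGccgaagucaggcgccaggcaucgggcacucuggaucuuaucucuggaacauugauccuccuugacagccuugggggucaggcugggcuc

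In a local alignment, 96 of 103 aligned bases (93.2%) were identical, and 3 loci in the RefSeq table carry the same mature sequence. The mature form, with its seed (bases 2 to 8) in capitals, is shown because it is shared by both called loci.
mature miR-680: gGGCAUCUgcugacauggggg

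Total RNA was amplified for whole transcripts, so a value at these loci reads RNA that contains the precursor sequence and does not measure the mature microRNA. Because the copies are this alike, the 2 loci are uncertain as separate findings. Snora20, a small nucleolar RNA of the class that guides pseudouridylation, was 7.60, 8.21 and 8.31 in WT EtopoTopo, against 6.55, 6.11 and 7.07 in WT Topo (1.46 ± 0.32, adjusted p = 0.0464). Mir100 rose by 0.82 ± 0.17, at intensities near the bottom of the array's range. Of the 27 genes called higher, 9 were small RNAs, olfactory or vomeronasal receptors, or predicted or clone-named genes. These kinds made up 0 of the 48 genes called lower and 2737 of all 19752 genes. Among the 9, Vmn2r96, a vomeronasal receptor gene named after its values were seen, differed by 0.78 ± 0.15 at a mean level of 4.45.

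**Figure D1:**
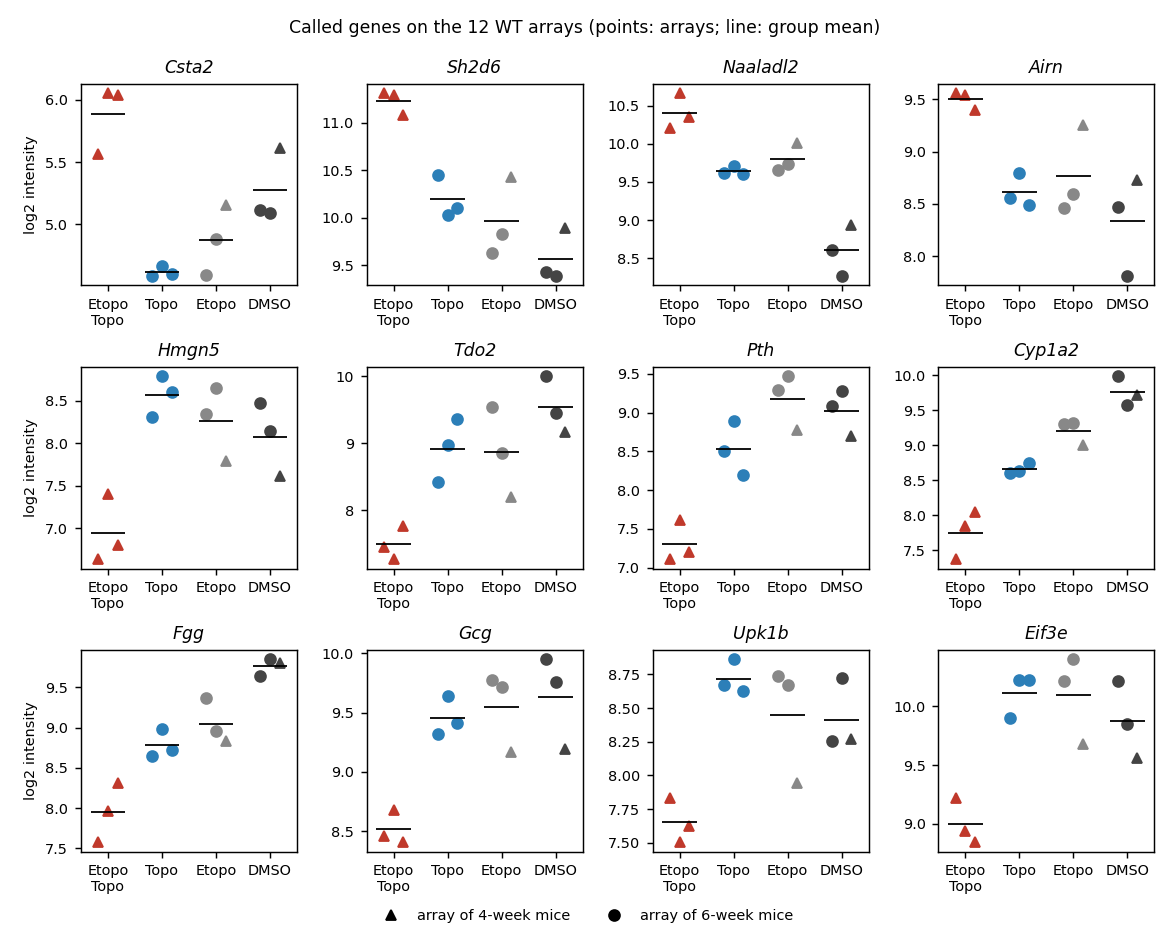
Log2 intensity of 12 genes called in the comparison (vertical axis, one scale per panel) on the 12 WT arrays, by treatment (horizontal axis). Points are arrays, with triangles for 4-week and circles for 6-week mice, and lines are group means. The EtopoTopo arrays lie apart from the Topo arrays in every panel, and in every panel the 4-week Etopo array lies on the side of the EtopoTopo arrays relative to both other Etopo arrays.

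The largest decrease was that of Hmgn5, which encodes a nucleosome-binding protein that loosens chromatin. Its log2 intensity was 6.64, 7.41 and 6.81 in WT EtopoTopo, against 8.31, 8.79 and 8.61 in WT Topo. No array with both drugs reached the Topo arrays, and the difference was -1.62 ± 0.25 (adjusted p = 0.012), or 3.07-fold lower. Eif3e, a subunit of the translation initiation factor eIF3, was 9.22, 8.94 and 8.84 in WT EtopoTopo, against 9.90, 10.22 and 10.22 in WT Topo (-1.12 ± 0.17, adjusted p = 0.012). Derl2, a channel component of protein export from the endoplasmic reticulum for degradation, fell by 1.11 ± 0.24, and Cd59a, which protects cells from complement, by 1.10 ± 0.23. Hspb11, which belongs to the intraflagellar transport machinery of cilia, fell by 1.07 ± 0.23. Vmo1, a secreted protein named for the vitelline membrane, fell by 1.21 ± 0.27, and Vsig1, an adhesion molecule of gastric epithelium, by 1.03 ± 0.22. Further called genes, named after their values were seen, were the purine salvage enzyme Hprt (-0.98 ± 0.21), the serpin Serpinb7 (-0.92 ± 0.16), the histone deacetylase Hdac2 (-0.70 ± 0.15) and Sat1, which acetylates polyamines (-0.65 ± 0.13).

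Tissue antigens were among the lower genes. Aire-induced genes were defined on other arrays, as the 640 genes (3.24% of those tested) lower in KO DMSO than in WT DMSO at an adjusted p under 0.05 and by at least 2-fold. Of the 48 genes called lower, 14 (29.2%) were Aire-induced, and of the 27 called higher, 1 was (Celf3, a neuronal RNA-binding protein, 0.70 ± 0.15). Without WT EtopoTopo 1, 6 of 39 genes called lower were Aire-induced, without WT Topo 1 there were 2 of 4, without WT EtopoTopo 3 there was 1 of 1, and without WT EtopoTopo 2, WT Topo 2 or WT Topo 3 there were 0. The 14 were Tdo2, Pth, Nppa, Akr1c18, Upk1b, Ocm, Gpx6, Gcg, Fbp1, Cyp1a2, Rln3, Gkn2, Reg4 and Fgg. Those outside the naming rule are listed because their count is given, after their values were seen.

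Liver transcripts were among them. Tdo2, the hepatic dioxygenase that opens the tryptophan ring, was 7.46, 7.27 and 7.76 in WT EtopoTopo, against 8.43, 8.97 and 9.37 in WT Topo (-1.43 ± 0.27, adjusted p = 0.0416). Cyp1a2, a liver cytochrome P450, was 7.37, 7.85 and 8.05, against 8.60, 8.64 and 8.75 in WT Topo (-0.91 ± 0.18, adjusted p = 0.0416). For both genes all arrays with both drugs were lower. Fgg, the gamma chain of fibrinogen, was 7.57, 7.97 and 8.31, against 8.64, 8.98 and 8.72 in WT Topo (-0.83 ± 0.16, adjusted p = 0.0416). Fbp1, an enzyme of gluconeogenesis, fell by 0.94 ± 0.18.

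Hormone and glandular transcripts were called lower as well. Parathyroid hormone, Pth, was 7.11, 7.62 and 7.21 in WT EtopoTopo, against 8.50, 8.90 and 8.20 in WT Topo (-1.22 ± 0.25, adjusted p = 0.0431). Gcg, the precursor of glucagon, was 8.46, 8.68 and 8.40, against 9.32, 9.64 and 9.41 in WT Topo (-0.94 ± 0.19, adjusted p = 0.0416). Neither gene overlapped between groups. Nppa, the atrial natriuretic peptide precursor, fell by 1.09 ± 0.24 and the relaxin family peptide Rln3 by 0.89 ± 0.16. Akr1c18, which inactivates progesterone, fell by 1.09 ± 0.22. Among epithelial antigens, the bladder uroplakin Upk1b fell by 1.07 ± 0.19, the stomach protein Gkn2 by 0.88 ± 0.17 and the intestinal lectin Reg4 by 0.87 ± 0.19. Gpx6, a glutathione peroxidase of olfactory epithelium, fell by 1.01 ± 0.21 and the calcium-binding protein Ocm by 1.01 ± 0.21.

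The promoters of 3 of these genes are shown because the genes differed in the same direction, and because promoters of tissue-restricted genes often carry a TATA box. The sequences are from RefSeq (GRCm38.p6), 300 bases each on the gene's own strand, from 250 bases before to 50 after the annotated start, at chr9:57683606-57683905 (minus) for Cyp1a2, chr2:62483604-62483903 (minus) for Gcg and chr3:83007474-83007773 (plus) for Fgg. Capitals mark TATAAA on either strand.
Cyp1a2: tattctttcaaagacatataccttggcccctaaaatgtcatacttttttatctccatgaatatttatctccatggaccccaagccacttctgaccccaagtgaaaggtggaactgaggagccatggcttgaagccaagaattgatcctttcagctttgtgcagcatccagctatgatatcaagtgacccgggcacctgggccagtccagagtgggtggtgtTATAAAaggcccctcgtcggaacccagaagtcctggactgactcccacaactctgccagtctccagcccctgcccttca
Gcg: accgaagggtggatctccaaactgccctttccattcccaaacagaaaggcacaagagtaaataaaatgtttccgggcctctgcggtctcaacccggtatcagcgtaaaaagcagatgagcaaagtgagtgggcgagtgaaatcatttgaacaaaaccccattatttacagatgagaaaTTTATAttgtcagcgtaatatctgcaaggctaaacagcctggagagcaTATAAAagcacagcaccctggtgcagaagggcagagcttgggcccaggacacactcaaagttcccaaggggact
Fgg: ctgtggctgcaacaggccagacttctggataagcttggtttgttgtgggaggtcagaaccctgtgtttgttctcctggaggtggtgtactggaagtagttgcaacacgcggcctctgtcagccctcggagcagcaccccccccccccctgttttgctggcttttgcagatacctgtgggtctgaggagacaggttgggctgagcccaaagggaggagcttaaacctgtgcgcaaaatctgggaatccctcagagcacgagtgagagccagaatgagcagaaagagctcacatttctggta

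The match began 29 bases before the start in Cyp1a2 and 24 before it in Gcg, which has a second match on the other strand 72 bases before, and Fgg has no match in this window. The letters occur in 7 of 13 promoters (53.8%) of the Aire-induced genes called lower, and in 11 of 46 promoters (23.9%) of all genes called lower. They occur in 7 of 27 promoters (25.9%) of the genes called higher. The share was 25.5% of 577 promoters of Aire-induced genes, 11.5% of 19019 promoters of genes tested and 13.6% of all 32851 promoters in the table. These counts describe letters in a window, and the sequences in capitals are not shown here to be used.

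Most Aire-induced genes lay slightly lower, well beyond those called. Their median difference was -0.21 log2 units and 79.7% were below 0, beside a median of -0.02 and 53.6% below 0 for all genes. The list's array means were 7.91 to 8.07 in WT EtopoTopo, against 8.19 to 8.32 in WT Topo, without overlap. The array means of all genes did not overlap either, so the lack of overlap alone does not set the list apart. Genes in neither Aire list had overlapping array means and a median difference of -0.01. Among the 156 genes that depend on Aire by at least 4-fold, the median was -0.36 and 11 were called lower. When all genes were divided into 10 bins of equal size by mean level, the list's median was negative in every bin, between -0.14 and -0.26. The median of the other genes ran from 0.18 in the lowest bin to -0.15 in the highest. The list's median was below that of the other genes in every bin, but by little in the bin next to the highest (-0.14 beside -0.12). In the highest bin it was -0.26 beside -0.15, so part of the negative median at high level was shared by the other genes. Aire-repressed genes (136 genes, 0.689% of those tested, higher in KO DMSO by the same rule) had a median of -0.12, with 3 called lower.

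The Aire transcript was 12.03, 11.27 and 11.75 in WT EtopoTopo, against 11.71, 11.63 and 12.02 in WT Topo. The groups overlapped, and the difference was -0.10 ± 0.25 (adjusted p = 0.893), or 0.029 after quantile normalization. Of 30 measured members of a list of Aire-dependent antigens, 3 were called lower (Pth, Cyp1a2 and Fgg), and the list's median was -0.21 (-0.086 with age as a covariate). Spink1, a pancreatic trypsin inhibitor of the same list, was -0.73 ± 0.28 (adjusted p = 0.205). Antigens that do not depend on Aire had 0 of 10 called and a median of -0.06.

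**Figure D2:**
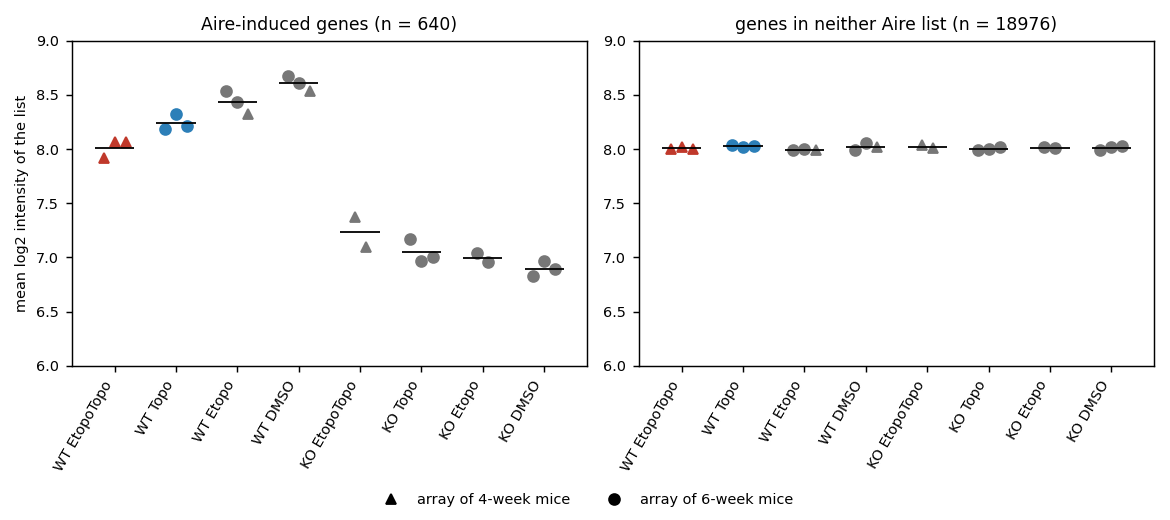
Mean log2 intensity (vertical axis) of the Aire-induced genes (left) and of genes in neither Aire list (right) on each of 22 arrays, by genotype and treatment (horizontal axis). Triangles are arrays of 4-week mice, circles arrays of 6-week mice, and lines group means. In the left panel, the WT EtopoTopo arrays sit at 7.91 to 8.07, below the WT Topo arrays at 8.19 to 8.32. The 4-week arrays of WT Etopo and WT DMSO are the lowest of their groups in the left panel but not in the right.

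The age of the mice moved with these results. An age difference could be measured outside the comparison, as the 4-week minus the 6-week arrays within WT DMSO and WT Etopo, from 1 array against 2 in each. It had the same sign as the EtopoTopo minus Topo difference for 26 of the 27 genes called higher, for 47 of the 48 called lower and for 71.6% of all genes. The exceptions were Vmn2r96 and Fam216b. The median age difference was 0.38 for the genes called higher, beside a median EtopoTopo minus Topo difference of 0.85, and -0.40 beside -0.89 for the genes called lower. Across all 19752 genes, which are not independent of each other, Pearson's r between both differences was 0.66. The thymocyte markers had a median age difference of -0.25, with 95% below 0. Among the WT DMSO arrays they were highest on WT DMSO 1, of 6-week mice. What else besides age enters the age difference was not tested.

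With age as a covariate, 0 genes were called in limma, and 247 had an unadjusted p under 0.05. All 75 called genes kept their direction in that fit, with medians of 0.44 for those called higher and -0.43 for those called lower. The adjusted difference contains the difference by which these genes were called, so the kept direction is not separate evidence. Csta2 differed by 0.81 (unadjusted p = 0.00039 in limma) and Mir680-1 by 1.05 (unadjusted p = 0.0015) after the adjustment. The age term rests on 1 array against 2 in each of WT DMSO and WT Etopo, and its error enters every adjusted difference. The age difference of Cyp1a2 was -0.19, of Fgg -0.14 and of Reg4 -0.04, and that of Nppa was -0.88, close to its full difference of -1.09. The Aire-induced list had a median of -0.14 in the age difference and -0.079 after adjustment, with 0 genes called.

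**Figure D3:**
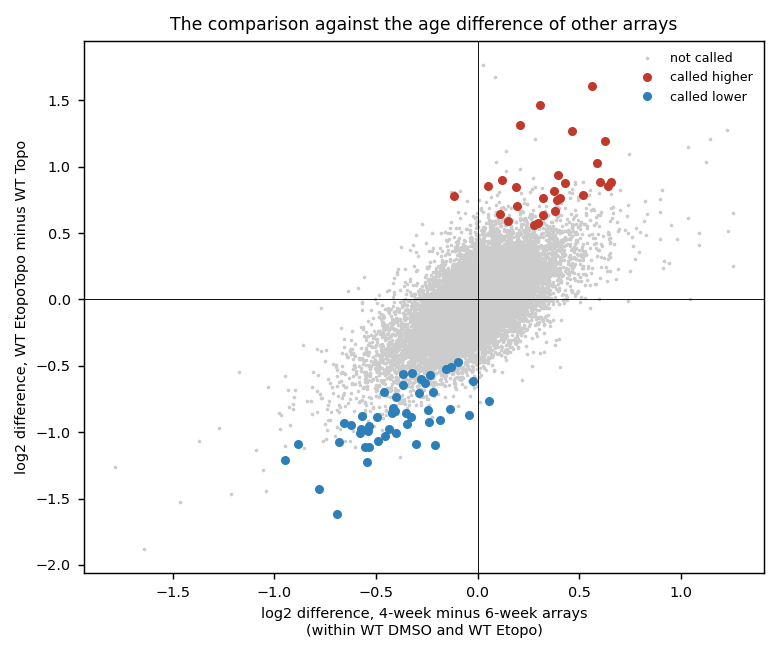
Log2 difference of WT EtopoTopo minus WT Topo (vertical axis) against the log2 difference of 4-week minus 6-week arrays within WT DMSO and WT Etopo (horizontal axis), one point per gene. Red points are the 27 genes called higher and blue points the 48 called lower, of which 73 lie in a quadrant where both differences have the same sign.

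The 2 arrays with conflicting treatment labels, WT EtopoTopo 1 and 2, also bear on the calls. Without both, 1 gene was called (Csta2, 1.42, adjusted p = 0.0443), from a single array with both drugs that is assumed to vary like the other groups. The median of the Aire-induced list was then -0.17.

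Tuft cells are chemosensory epithelial cells that occur in the thymic medulla and use the taste transduction cascade. Of 23 tuft genes measured, 1 was called higher (Sh2d6), 20 lay above 0 and the median was 0.23. The array means were 9.90 to 10.02 in WT EtopoTopo, against 9.60 to 9.83 in WT Topo, without overlap. Those of all genes did not overlap either, but were lower in WT EtopoTopo. Chat, which makes acetylcholine, was 8.39, 8.71 and 8.68 in WT EtopoTopo, against 8.05, 7.86 and 8.06 in WT Topo (0.60 ± 0.15, adjusted p = 0.0714). Gng13, a G protein subunit of taste transduction, differed by 0.54 ± 0.15 (adjusted p = 0.0876) and the phospholipase Plcb2 by 0.59 ± 0.24 (adjusted p = 0.24). A larger share of tuft cells and more RNA per tuft cell cannot be told apart in sorted bulk samples. The median age difference of the list was 0.14, and its median was 0.35 after quantile normalization and 0.091 with age as a covariate.

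Bitter taste receptors, which bind bitter compounds at the head of that cascade, had 0 of 34 called, but 33 lay above 0 and the median was 0.33. Their array means were 6.56 to 6.81 in WT EtopoTopo and 6.18 to 6.42 in WT Topo. Tas2r115 was 8.45, 9.04 and 8.83, against 7.74, 7.40 and 7.36 in WT Topo (1.28 ± 0.35, adjusted p = 0.0837), and Tas2r106 differed by 1.21 ± 0.31 (adjusted p = 0.0757). The age difference had the same size in this list, with a median of 0.33, and the median after adjustment for age was -0.01. Olfactory and vomeronasal receptors, which lie near the bottom of the intensity range, had 3 of 1194 called higher and a median of 0.27. That median was 0.14 after quantile normalization and 0.20 with age as a covariate.

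Genes of the drug targets and of the response to DNA breaks did not pass the test. Top1, which encodes topoisomerase I, was 9.23, 8.93 and 8.79 in WT EtopoTopo, against 9.31, 9.34 and 9.57 in WT Topo (-0.42 ± 0.16, adjusted p = 0.199). Top2a was 8.13, 7.69 and 8.09, against 8.10, 8.86 and 9.14 in WT Topo (-0.73 ± 0.27, adjusted p = 0.196), and Top2b differed by -0.10 ± 0.20 (adjusted p = 0.873). The groups did not overlap for Top1 but overlapped for both type II enzymes. Of 13 genes of topoisomerases and of the repair of trapped enzymes, 0 were called, with a median of -0.08 (-0.14 with age as a covariate). DNA break signalling and repair had 0 of 28 called and a median of 0.00 (-0.14 with age as a covariate). Within that list, Rad50 was -0.39 ± 0.13 and Mdc1 0.26 ± 0.13. Targets of p53 had 0 of 30 called and a median of -0.16 (-0.10 after quantile normalization, -0.042 with age as a covariate), with Ei24 at -0.68 ± 0.22 (adjusted p = 0.137).

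Proliferation genes leaned low without a called member. Of 38 mitosis genes 35 lay below 0 with a median of -0.20, but their array means overlapped, at 7.58 to 7.92 in WT EtopoTopo and 7.82 to 8.10 in WT Topo. Their median age difference was -0.03, and their median was -0.18 with age as a covariate. In KO EtopoTopo minus KO Topo the median of the mitosis genes was 0.05, with 39.5% below 0. DNA replication genes had a median of -0.09 over 38 genes (-0.14 with age as a covariate). Pcna, the sliding clamp of replication, was -0.55 ± 0.14 (adjusted p = 0.0757). Core histones had a median of -0.13 over 26 genes, or -0.061 with age as a covariate.

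Genes of MEC maturation and antigen presentation also had no called member. Class II presentation and costimulation had a median of -0.18 over 16 genes, with array means of 10.96 to 11.05 in WT EtopoTopo and 11.17 to 11.24 in WT Topo. That median was -0.092 after quantile normalization and -0.061 with age as a covariate. Ctss, a protease that trims the class II invariant chain, was -0.79 ± 0.20 (adjusted p = 0.0757), and Ciita, the master activator of class II genes, was -0.55 ± 0.17 (adjusted p = 0.129). Cornified post-Aire MEC genes had a median of -0.24 over 22 genes and went both ways, from Sbsn at -0.77 ± 0.26 to Sprr1a at 0.46 ± 0.15. Their array means overlapped, at 9.54 to 9.66 in WT EtopoTopo and 9.62 to 9.80 in WT Topo, the median age difference was -0.16, and the median with age as a covariate was -0.017. Immediate early and stress genes, which respond within minutes to handling and growth signals, had a median of -0.31 over 31 genes, with Fos at -0.97 ± 0.49 (0.30 with age as a covariate) and Jun at -0.63 ± 0.24. The age difference of that list was larger, with a median of -0.40, and its median was -0.18 after quantile normalization and 0.098 with age as a covariate.

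The remaining lists had medians close to that of all genes, before adjustment for age, and 0 called members. They were the RANK, CD40 and NF-kB pathway (-0.03, 18 genes), MEC chemokines (0.00, 13 genes), immature MECs (-0.03, 8 genes), Aire partners (-0.06, 33 genes), the interferon response (-0.03, 29 genes) and drug efflux transporters (-0.10, 6 genes). With age as a covariate the medians, in the same order, were 0.017, 0.002, -0.18, -0.086, -0.15 and -0.072, beside -0.02 for all genes. Within these lists, the chemokine gene Ccl22 was 0.69 ± 0.22 and the antiviral synthetase gene Oas2 was 0.65 ± 0.17, neither of them called. Markers of other cells had 0 called members as well. Their medians were -0.15 for cortical epithelium (12 genes), -0.09 for thymocytes (20) and 0.03 for B cells (10). For macrophages and dendritic cells (21) the median was -0.08, and for fibroblasts and endothelium (17) it was -0.10. With age as a covariate the medians were -0.15 for cortical epithelium, 0.21 for thymocytes and -0.03 for B cells. They were 0.03 for macrophages and dendritic cells and -0.10 for fibroblasts and endothelium. The 14 epithelial markers were all below 0, with a median of -0.18 (-0.099 after quantile normalization, -0.073 with age as a covariate), and Krt18 was -0.34 ± 0.13.

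**Figure D4:**
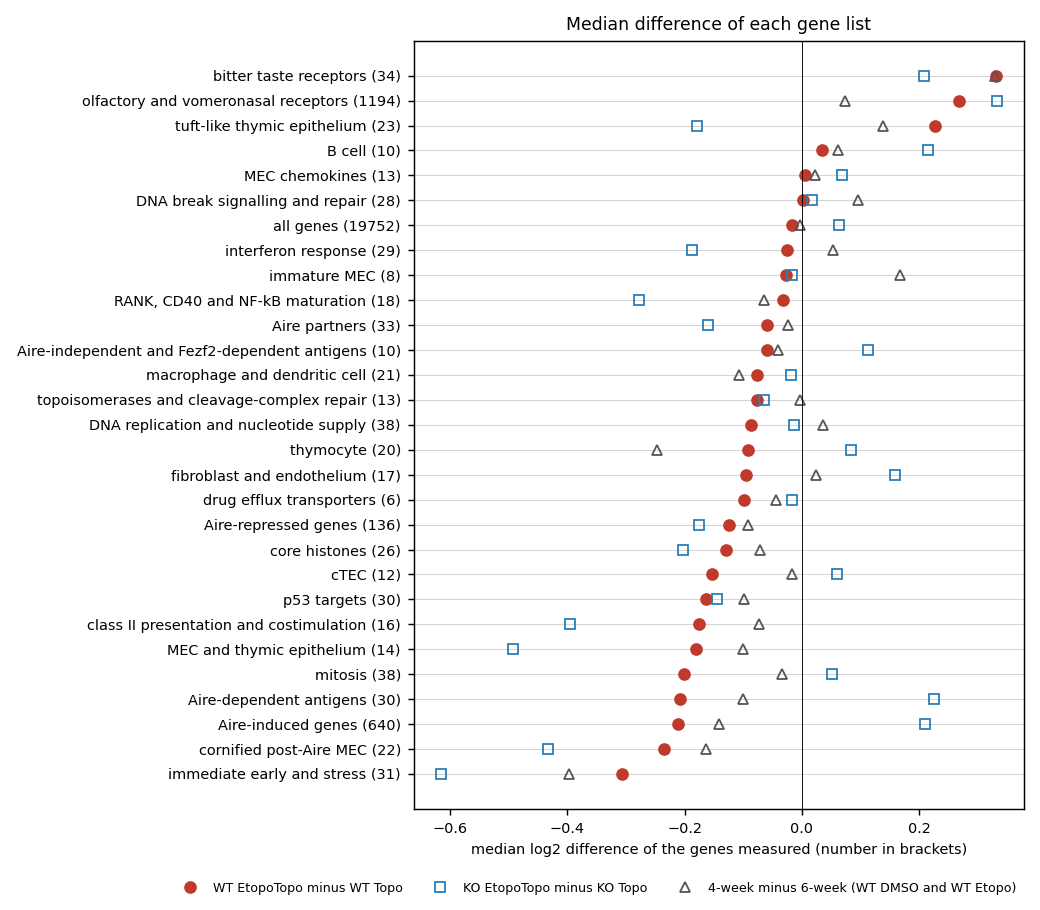
Median log2 difference (horizontal axis) of the measured genes of each list (vertical axis, number of genes in brackets). Filled circles are WT EtopoTopo minus WT Topo, open squares KO EtopoTopo minus KO Topo and open triangles 4-week minus 6-week arrays. The Aire-induced genes lie at -0.21 in WT and at 0.21 in KO, where the median is 0.041 without KO EtopoTopo 1, and the bitter taste receptors at 0.33 in both WT EtopoTopo minus WT Topo and the age difference.

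The same step was measured in Aire KO MECs on arrays that share none with the WT comparison but differ in age in the same way. There, 219 genes were called (1.11%), 64 higher and 155 lower. Of the 75 genes called in WT, 65 differed in the same direction in KO, beside 66.5% of all genes. These comprised 26 of the 27 called higher and 39 of the 48 called lower. The lower genes of the other sign in KO were all Aire-induced, namely Pth, Nppa, Upk1b, Gpx6, Gcg, Cyp1a2, Rln3, Gkn2 and Fgg. Called in KO themselves were 4 of the 27 (beside 0.324% of all genes called higher in KO) and 9 of the 48 (beside 0.785% called lower). The tuft cell list had array means of 9.21 and 9.79 in KO EtopoTopo, against 9.68, 9.49 and 9.73 in KO Topo, and its KO median of -0.18 was 0.18 without KO EtopoTopo 1. The bitter taste receptors had a KO median of 0.21, which was 0.062 without KO EtopoTopo 1 and 0.10 to 0.41 without any other single KO array. Hmgn5 differed by -0.61 in KO, Eif3e by -0.96 and Mir680-1 by 1.18, while Csta2 differed by 0.22. Leaving out any single one of the 5 KO arrays moved that count by over 1.5 times. It was 0 in limma without KO EtopoTopo 1, whose span was 3.60 (1173 genes at an unadjusted p under 0.05), 6447 without KO EtopoTopo 2, and 1210, 25 and 3 without KO Topo 1, 2 and 3.

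Aire-induced genes had a KO median of 0.21, beside 0.06 for all genes, on arrays of a genotype where these genes are low by the definition of the list. That value rested on KO EtopoTopo 1. The list's array means were 7.38 and 7.09 in KO EtopoTopo, against 7.17, 6.97 and 7.01 in KO Topo, so that KO EtopoTopo 2 lay within the KO Topo arrays. Without KO EtopoTopo 1 the median was 0.041, beside 0.021 for all genes, and without KO EtopoTopo 2 it was 0.39. In KO the median difference ran with level, from 0.22 in the lowest of the 10 bins to -0.24 in the highest. The difference between genotypes itself was called for 2 genes (0.0101%). Pth was 6.65 and 5.37 in KO EtopoTopo, against 5.09, 4.84 and 4.96 in KO Topo, and the KO difference minus the WT difference was 2.27 ± 0.37 (adjusted p = 0.0455). Csn1s2a, a milk casein, was 8.39 and 7.96 in KO EtopoTopo, against 6.74, 6.90 and 6.50 in KO Topo. In WT it was 9.26, 9.97 and 9.71 with both drugs, against 9.97, 10.46 and 10.04 with Topo, so that the KO difference minus the WT difference was 1.97 ± 0.31 (adjusted p = 0.0455). The count was 0 after quantile normalization and without any single array of the 4 groups, other than WT EtopoTopo 2 (2 genes) and KO EtopoTopo 2 (1747 genes).

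A last comparison asked whether the Etopo difference depends on the presence of Topo in WT cells. The EtopoTopo minus Topo difference exceeded the Etopo minus DMSO difference for 1 gene (0.00506%), Csta2, by 1.66 ± 0.22 (adjusted p = 0.00516). Csta2 was lower in Etopo than in DMSO arrays by a mean of -0.40, and lower in Topo than in DMSO arrays by -0.66, but highest with both drugs. The mean level of Csta2, 5.02, lay near the bottom of the array's range. At an unadjusted p under 0.05 there were 1797 genes. The ages are not balanced in this contrast either, and with age as a covariate 0 genes were called and Csta2 stood at 1.20.

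The differences also followed intensity. The median was 0.17 in the bin of lowest mean level and -0.15 in the bin of highest, and after quantile normalization it was 0.00 in the lowest and -0.02 in the highest. By gene length the median was 0.01 below 10 kb, -0.06 from 10 to 30 kb, -0.04 from 30 to 100 kb, 0.01 from 100 to 300 kb and 0.08 above 300 kb. In the longest group, of 526 genes, 2 were called higher and 0 lower, beside 0.137% higher and 0.243% lower of all genes. Such counts are too small to compare. The age difference had a median of 0.09 in that group.

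**Figure D5:**
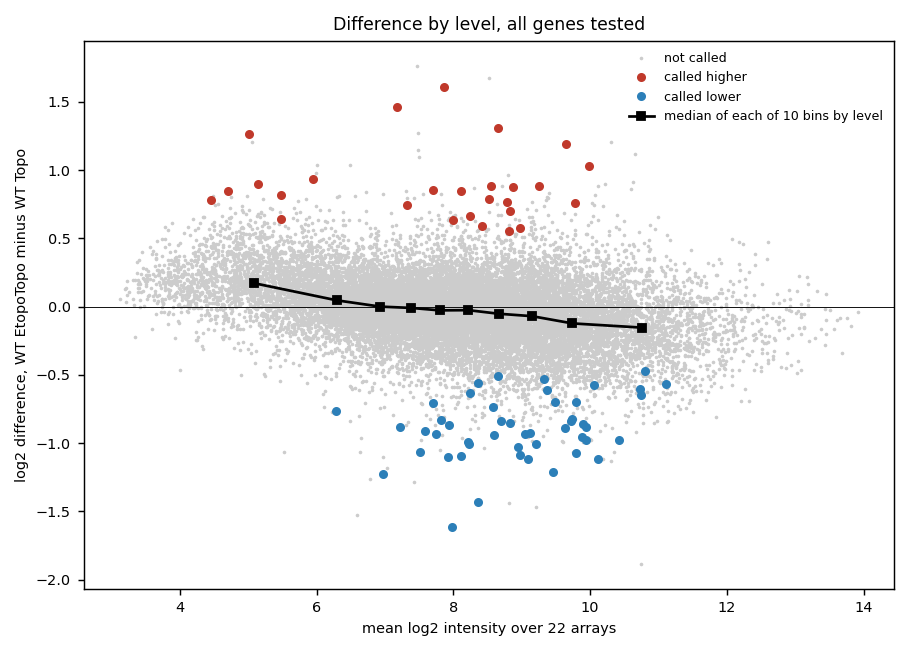
Log2 difference of WT EtopoTopo minus WT Topo (vertical axis) against mean log2 intensity over 22 arrays (horizontal axis), one point per gene. Red and blue points are the genes called higher and lower, and black squares are the medians of the 10 bins by level, which run from 0.17 at the lowest to -0.15 at the highest level.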

How the data were processed

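Per the submitters' processing notes, RMA and Affymetrix Power Tools were used, without versions; the genome build is not given in the sources used here. The deposited values are probe intensity on a linear scale, and log2 was taken without a pseudocount or further normalization. Of 24922 probes, 21425 had 1 gene symbol in the platform annotation, 1399 had several and 2098 had none, and the last 2 kinds were left out. Identifiers of 21347 probes matched RefSeq (GRCm38.p6), and 0 symbols changed. The probe with the highest mean was kept per gene, giving 19752 genes. All 22 arrays were fitted in limma 3.58.1 (R 4.3.3, data.table of version 1.17.8) with 1 mean per group (lmFit, eBayes; 14 residual and 7.22 prior degrees of freedom), and Benjamini-Hochberg adjustment ran over the whole table. Errors after ± are standard errors of the fit unless marked otherwise. The fit was tested on simulated data with independent normal noise for each gene. These held no age difference and no arrays of unlike span, so that test does not bear on either.

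Genes were named as the 12 highest and 12 lowest called genes with separate groups, the 4 members of each list with the largest difference, genes of the other contrasts and fixed check genes; predicted genes, small RNAs and chemosensory receptors other than Tas2r were not named by rule. The members and lists were chosen with earlier results of these data known, so lists are described by counts and medians with no test. Of 1773 list entries in 26 lists, 1734 were measured. Gene lengths came from RefSeq for 99.6% of genes. Replicate numbers did not pair the WT EtopoTopo and WT Topo arrays: deviations of arrays with the same number correlated at -0.27, 0.24 and -0.21 across genes. Other groups were not checked in this way. Alternatives were quantile normalization, a dim filter (mean log2 of at least 7), the mean of all probes, an intensity trend, array weights, age, a replicate block, fewer arrays and single arrays left out.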

Additional observations from a re-analysis of the deposited data

Results flagged for a closer look

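The step to both drugs differed between genotypes, by the test of the difference itself, for Pth and Csn1s2a. The KO difference minus the WT difference was 2.27 for parathyroid hormone (Pth) and 1.97 for the casein Csn1s2a (adjusted p = 0.0455 for each in limma). In KO the EtopoTopo arrays were higher than the Topo arrays by 1.05 ± 0.28 (Pth, adjusted p = 0.0562) and 1.46 ± 0.23 (Csn1s2a, adjusted p = 0.0187). In WT the differences were -1.22 ± 0.25 and -0.51 ± 0.21. The call was lost for both genes after quantile normalization, with array weights, with the replicate block, without the arrays of conflicting labels and without any single array of the 4 groups other than WT EtopoTopo 2 and KO EtopoTopo 2.

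Csta2 differed between the Etopo step with Topo and the Etopo step without it in WT, by 1.66 (adjusted p = 0.00516). It was the only gene called in that test, at a mean level of 5.02, near the bottom of the array's range.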

How the results depend on the processing

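The deposited arrays are few and the groups differ in age, so counts of called genes moved widely. Of 1121 values of named genes under the alternatives, 9 had another sign, all of genes that were not called. With age as a covariate these were Fos (0.30), Sbsn (0.075), Krt18 (0.034) and Spink1 (0.17). Aire was 0.029 after quantile normalization and -0.28 to 0.10 without single arrays, and Top2b was -0.24 to 0.028 without single arrays. The WT count of 75 was 264 after quantile normalization (157 higher, 107 lower, against 27 and 48), 3248 with array weights (estimated gene by gene), 1500 in a fit of the 6 arrays alone and 508 in a fit of the 12 WT arrays. It was 0 with age as a covariate, 1 without both arrays of conflicting labels and 0 without WT EtopoTopo 2 and 3 (1312 at an unadjusted p under 0.05), the arrays of narrow span. Single arrays left out gave 2 to 84. The fit of the 12 WT arrays and those without WT EtopoTopo 2 and 3 were chosen after seeing the data, as were the Aire-induced value without the conflicting labels and the list medians in KO without single arrays. The KO count of 219 was 452 after quantile normalization, 342 with the dim filter, 0 with array weights (2260 unadjusted), 0 with age (1491 unadjusted) and 0 to 6447 without single arrays.

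The genotype difference (2 genes) was 0 after quantile normalization (1609 unadjusted), 1 with the dim filter, 0 with array weights (554 unadjusted), 0 without the conflicting labels (600 unadjusted), 3 with age and 0 to 1747 without single arrays. The Etopo step with against without Topo (1 gene) was 2 after quantile normalization, 0 with the dim filter, which drops Csta2 (1332 unadjusted), 2727 with array weights, 0 with age (459 unadjusted) and 1 to 25 without single arrays.

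The Aire-induced median of -0.21 was -0.079 with age, -0.33 without WT EtopoTopo 2 and 3, -0.36 for genes of at least 4-fold and -0.25 to -0.17 without single arrays. Its 14 genes called lower were 25 after quantile normalization, 0 with age, 0 without the conflicting labels, 0 without WT EtopoTopo 2 and 3 and 0 to 6 without single arrays.

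With the replicate number as a block, in fits of the groups of each contrast alone, the WT count was 1319, the KO count 163, the genotype difference 0 (826 unadjusted), the step with against without Topo 72 and the Aire-induced genes called lower 123. The numbers did not pair the WT EtopoTopo and WT Topo arrays, and pairing in the other groups was not tested. In WT DMSO and WT Etopo, replicate 3 was the only array of 4-week mice, so the block carries age there. These counts therefore say nothing of an effect of pairing. List medians changed sign in 5 of 26 lists after quantile normalization and in 8 of 26 with age, and in 0 with the block or the mean of all probes. The cause of these changes was not tested.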
